A study of Mus musculus with 2 samples.

Results

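A set of 1279 genomic regions was strongly methylated in PDGFRα+ adipose progenitors and weakly methylated in CD137+ adipose progenitors. The regions came from the authors' list of 28141 regions that differ in DNA methylation between the 2 libraries, and they were chosen by their deposited levels. A region was taken when its methylation level was at least 0.80 in PDGFRα+ cells and at most 0.30 in CD137+ cells and when it lay on chromosomes 1 to 19. The set made up 4.61% of the 27774 autosomal regions, and 20.6% of the 6193 autosomal regions that were higher in PDGFRα+ cells. Those 6193 were 22.3% of the autosomal list.

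The assay was whole-genome bisulfite sequencing, which converts cytosines unless they carry a methyl group. A level is the fraction read as methylated over the cytosines of a region. One library came from C57BL/6 mouse cells sorted with magnetic beads for PDGFRα (CD140), the platelet-derived growth factor receptor that marks mesenchymal progenitors. The other came from C57BL/6 cells sorted for CD137, a costimulatory receptor on activated T cells that also marks precursors of beige fat cells. Both came from subcutaneous or visceral fat, were cultured, were exposed to an adipogenic cocktail and received 1 µM dexamethasone, a synthetic glucocorticoid. Which depot gave which library, the age and number of the animals, whether animals were pooled, and the genotype beyond the strain were not stated. Since both libraries received dexamethasone and no untreated library was analysed, the levels cannot be set against an untreated state. Nor can they tell whether methylation was lost in one population or gained in the other, and "higher" and "lower" are used here only between the 2 libraries.

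With 1 library per population, no value has a replicate check and no test between the populations was possible. Read depth is unknown, so levels carry no interval. The 95% exact binomial intervals given for shares of regions cover counting error only and treat regions as independent. RNA was not measured in these libraries, so the sorts could not be checked by expression. Of the sort markers, Pdgfra held no region of the set and 1 region that was lower in PDGFRα+ (0.2102) than in CD137+ cells (0.769), and Tnfrsf9, the gene of CD137, held no listed region within 2 kb.

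In mammals, methylation sits mostly on cytosines followed by guanine, called CpG sites, and most of these are methylated in most cells. Enhancers and CpG-poor promoters tend to be unmethylated in the lineages that use them and methylated elsewhere, so low methylation at such sites is often read as a record of cell lineage. Promoters rich in CpG sites, by contrast, tend to stay unmethylated in most cell types.

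The stretches that carried the pattern at gene starts are shown first, since 30 of the regions reached a promoter window, the 250 bases before and 50 bases after the start of a protein-coding gene. The lines below give the part before the start that the region covered, for 9 genes of blood and endothelial cells chosen after their positions were seen. They are RefSeq sequences on GRCm38.p6, the assembly of mm10, written 5′ to 3′ with CpG sites in capitals.
Ptprc promoter, chr1:138175306-138175555, minus strand: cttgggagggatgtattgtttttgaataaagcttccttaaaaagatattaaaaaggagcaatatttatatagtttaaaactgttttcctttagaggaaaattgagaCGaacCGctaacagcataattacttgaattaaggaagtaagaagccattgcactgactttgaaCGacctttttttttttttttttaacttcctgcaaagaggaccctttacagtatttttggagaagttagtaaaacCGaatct
Il7r promoter, chr15:9529877-9530126, minus strand: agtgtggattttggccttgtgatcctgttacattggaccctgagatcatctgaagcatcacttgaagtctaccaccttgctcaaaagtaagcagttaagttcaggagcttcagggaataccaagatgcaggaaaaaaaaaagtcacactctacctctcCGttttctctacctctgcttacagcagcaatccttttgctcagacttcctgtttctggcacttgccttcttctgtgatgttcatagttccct
Dock2 promoter, chr11:34783906-34784155, minus strand: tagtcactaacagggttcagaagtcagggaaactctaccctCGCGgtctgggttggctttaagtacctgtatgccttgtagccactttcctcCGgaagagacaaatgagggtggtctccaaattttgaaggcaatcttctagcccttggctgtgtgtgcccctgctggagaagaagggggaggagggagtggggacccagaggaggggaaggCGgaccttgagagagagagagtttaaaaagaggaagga
Plek promoter, chr11:17008719-17008968, minus strand: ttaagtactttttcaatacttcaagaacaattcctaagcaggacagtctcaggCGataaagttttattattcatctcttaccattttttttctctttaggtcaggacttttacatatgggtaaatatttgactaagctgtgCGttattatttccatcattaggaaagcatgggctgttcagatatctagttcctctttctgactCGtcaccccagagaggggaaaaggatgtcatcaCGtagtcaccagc
Cd96 promoter, chr16:46120249-46120498, minus strand: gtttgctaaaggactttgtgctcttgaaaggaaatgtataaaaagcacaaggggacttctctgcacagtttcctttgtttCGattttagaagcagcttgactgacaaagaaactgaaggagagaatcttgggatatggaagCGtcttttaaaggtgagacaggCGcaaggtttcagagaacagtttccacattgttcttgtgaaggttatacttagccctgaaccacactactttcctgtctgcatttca
Ptpn7 promoter, chr1:135132489-135132699, plus strand: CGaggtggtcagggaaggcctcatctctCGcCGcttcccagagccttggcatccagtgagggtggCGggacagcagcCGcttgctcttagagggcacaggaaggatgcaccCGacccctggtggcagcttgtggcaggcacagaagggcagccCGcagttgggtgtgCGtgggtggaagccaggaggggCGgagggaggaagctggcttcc
Runx1 promoter, chr16:92826075-92826143, minus strand: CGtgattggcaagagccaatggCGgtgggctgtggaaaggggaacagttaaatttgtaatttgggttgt
Erg promoter, chr16:95459349-95459419, minus strand: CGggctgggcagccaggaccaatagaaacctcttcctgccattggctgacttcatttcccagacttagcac
Eng promoter, chr2:32646555-32646594, plus strand: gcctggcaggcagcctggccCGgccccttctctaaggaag
In the first 5 of these the region covered the whole promoter window. The stretches were poor in CpG sites. The window of Il7r, the interleukin-7 receptor chain of lymphocytes, held 1 CpG site in 300 bases, and that of Ptprc, which encodes the leukocyte common antigen CD45, held 4.

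At the start of Ptprc the level was 0.801 in PDGFRα+ and 0.192 in CD137+ cells, over 16 cytosines. At Il7r it was 0.895 in PDGFRα+ and 0.282 in CD137+ cells, over 5 cytosines. Dock2, a Rac exchange factor that drives leukocyte migration, measured 0.854 in PDGFRα+ and 0.251 in CD137+ cells over 34 cytosines. These values belong to the rule that chose the regions and are given as a description. Plek (pleckstrin, a protein kinase C substrate of platelets and leukocytes) stood at 0.861 in PDGFRα+ and 0.258 in CD137+ cells. Ptpn7, a tyrosine phosphatase of blood cells, stood at 0.867 in PDGFRα+ and 0.152 in CD137+ cells. Cd96, a receptor of T and natural killer cells, stood at 0.818 in PDGFRα+ and 0.225 in CD137+ cells. Of these 3 starts, Ptpn7 had the lowest CD137+ level. The other listed regions of Il7r and Cd96 went the other way. At Il7r 2 were lower in PDGFRα+, with means of 0.121 in PDGFRα+ and 0.675 in CD137+ cells. At Cd96 3 were lower in PDGFRα+, with means of 0.166 in PDGFRα+ and 0.661 in CD137+ cells. Runx1, a transcription factor of blood formation, had 0.913 in PDGFRα+ and 0.257 in CD137+ cells at one of its starts. Erg, an ETS-family factor of endothelial and blood stem cells, had 0.934 in PDGFRα+ and 0.270 in CD137+ cells in a region of 1269 bases. Eng (endoglin, a co-receptor for transforming growth factor beta on endothelium) had 0.890 in PDGFRα+ and 0.191 in CD137+ cells.

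Across the 1279 regions the median level was 0.872 in PDGFRα+ (quartiles 0.838 and 0.911) and 0.249 in CD137+ cells (quartiles 0.2079 and 0.277). The median difference was 0.63 and the largest was 0.89. A level of 0.90 or more in PDGFRα+ was found in 397 regions (31.0%), whereas a level under 0.20 in CD137+ was found in 239 (18.7%) and one under 0.10 in 5. Most regions of the set were thus low but not free of methylation in CD137+ cells. In bulk DNA, full methylation in part of the cells and partial methylation in all of them cannot be told apart. The levels ran on across the thresholds without a gap. The least methylated member in PDGFRα+ stood at 0.80 there, with 0.159 in CD137+, and the nearest region left out stood at 0.7999 with 0.106. A further 137 regions missed the PDGFRα+ threshold by at most 0.02, and 293 missed the CD137+ threshold by at most 0.02.

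**Figure D1:**
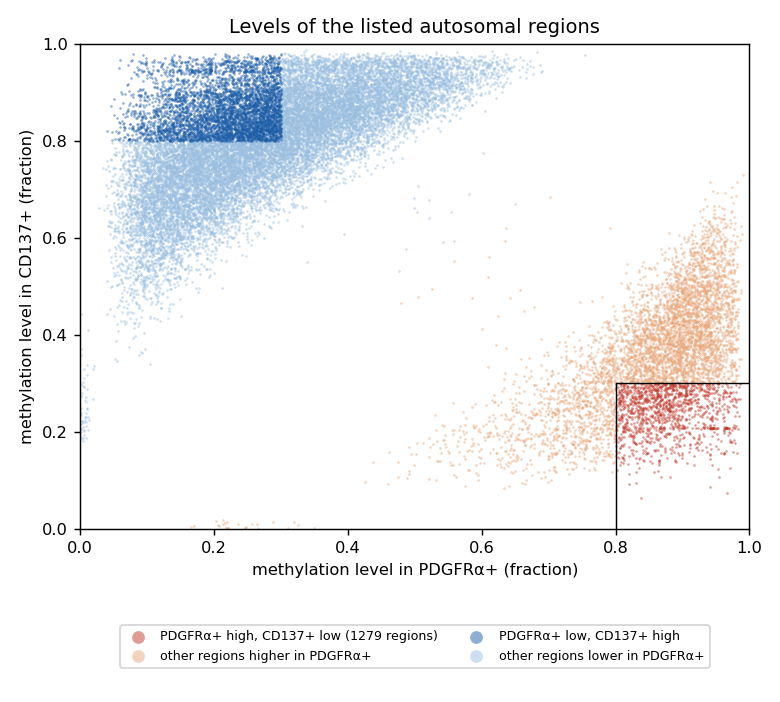
Methylation level of each of the 27774 autosomal regions in PDGFRα+ (horizontal axis) and CD137+ (vertical axis), as fractions, with the thresholds drawn as lines. The 1279 regions of the set fill the lower right corner, with median levels of 0.872 in PDGFRα+ and 0.249 in CD137+, and the cloud continues across both thresholds.

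Levels in CD137+ were not spread evenly within the set. Between 0.206 and 0.21 lay 84 of the regions (6.57%), 59 in the lower and 25 in the upper of 2 steps of 0.002, while the other steps between 0.19 and 0.23 held 7 to 18 regions each. The single value 0.2079 was given to 17 regions. These 84 regions had a median of 6 cytosines and 119 bases, and a median level of 0.925 in PDGFRα+. The sources used here give neither the coverage nor any smoothing behind such repeated values, and their part was not tested.

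The widest differences belonged mostly to short regions with few cytosines. Cc2d2b held the widest, with 0.966 in PDGFRα+ and 0.074 in CD137+ cells over 53 bases and 4 cytosines. Akap13, an A-kinase anchoring protein, followed with 0.942 in PDGFRα+ and 0.086 in CD137+ cells over 4 cytosines. Sntb1 (a syntrophin of the dystrophin complex) stood at 0.954 in PDGFRα+ and 0.124 in CD137+ cells over 6 cytosines. Popdc2, a cyclic AMP-binding membrane protein of muscle, stood at 0.982 in PDGFRα+ and 0.156 in CD137+ cells over 4 cytosines. A region at Hivep3, a zinc finger factor, was longer than these, with 0.976 in PDGFRα+ and 0.158 in CD137+ cells over 916 bases and 13 cytosines. The remaining 5 of the 10 widest at coding genes lay at Lrrfip1, Wscd2, Stn1, Bcr and Cdh13 and held 4 to 9 cytosines each.

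The regions ranked highest by the authors' area statistic were larger. The longest of the whole set covered 2603 bases and 82 cytosines at chr14:75178487-75181089 within Lcp1, which encodes the leukocyte actin-bundling protein L-plastin, with 0.836 in PDGFRα+ and 0.2803 in CD137+ cells. A region of 891 bases and 53 cytosines lay within 2 kb of Lyl1, a helix-loop-helix factor of blood stem cells, and inside Nfix, and measured 0.849 in PDGFRα+ and 0.202 in CD137+ cells. Mbnl1, a regulator of splicing, held a region of 2247 bases and 51 cytosines with 0.926 in PDGFRα+ and 0.252 in CD137+ cells. Wipf1, which binds the Wiskott-Aldrich syndrome protein in blood cells, held one of 53 cytosines over its start with 0.804 in PDGFRα+ and 0.226 in CD137+ cells. Plac8, a small cysteine-rich protein, held one of 36 cytosines with 0.922 in PDGFRα+ and 0.180 in CD137+ cells. Others of the first 10 were at Ehbp1 (an adaptor of endocytic traffic), Erg, Osr1, Rcn3 (a calcium-binding protein of the endoplasmic reticulum) and Speg (a kinase of striated muscle). Osr1 encodes a transcription factor of mesenchymal progenitors, and its region of 57 cytosines stood at 0.803 in PDGFRα+ and 0.276 in CD137+ cells. Length alone brought in sparse regions as well. Tg, which encodes thyroglobulin, held one of 1447 bases with only 9 cytosines, at 0.905 in PDGFRα+ and 0.199 in CD137+ cells, and Tm6sf1 one of 1328 bases with 8 cytosines.

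Size and cytosine content were not used by the rule. The number of cytosines deposited for a region counts CpG cytosines on both strands: in 84 regions that lay wholly inside a promoter window it never exceeded the number in the sequence, and it equalled it in 42. The regions of the set had a median length of 240 bases (quartiles 134 and 368), against 184 bases in the other 4914 regions higher in PDGFRα+. They held a median of 8 cytosines, against 9 in the other higher regions. The median density was 4.0 cytosines per 100 bases (quartiles 2.88 and 5.37), against 5.46 in the other higher regions. A density of 10 or more occurred in 3.28% of the set and in 10.8% of the other higher regions. The set was thus longer by a ratio of 1.304 and sparser in counted cytosines by a ratio of 0.732 in medians. A median of 97.4% of the CpG cytosines was counted in the 84 checked regions. In regions of the set, 9 of 19 were counted at Ptpn7, 10 of 20 at Cbfa2t3 and 7 of 8 at Stra6. The part of uncounted cytosines in the density ratio was not tested. Within 4 classes of cytosine number, the ratio of median lengths stayed between 1.26 and 1.52, and that of densities between 0.668 and 0.7796.

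The mirror image of the set provides a second comparison: 4910 autosomal regions had at most 0.30 in PDGFRα+ and at least 0.80 in CD137+ cells. The set of 1279 regions was shorter and denser than these, with medians of 240 against 262.5 bases and 4.0 against 3.66 cytosines per 100 bases. For every region of the set the list held 3.84 mirror regions, and for every higher region 3.49 lower ones. In both directions the regions with extreme levels were longer and sparser than the rest of their direction, since the other 16671 lower regions had medians of 210 bases and 4.83 cytosines per 100 bases. Regions with only 4 cytosines, the fewest in the list, made up 13.1% of the set, 7.37% of the other higher regions, 11.7% of the mirror regions and 7.76% of the other lower regions. The most cytosine-dense members were small. They lay at Akna, an AT-hook transcription factor of lymphocytes (84 bases, 20 cytosines), Rmnd5b (52 bases, 12 cytosines), Daam1, Foxo6 and Tbx4. In all, the set covered 364.3 kb and 13565 cytosines.

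**Figure D2:**
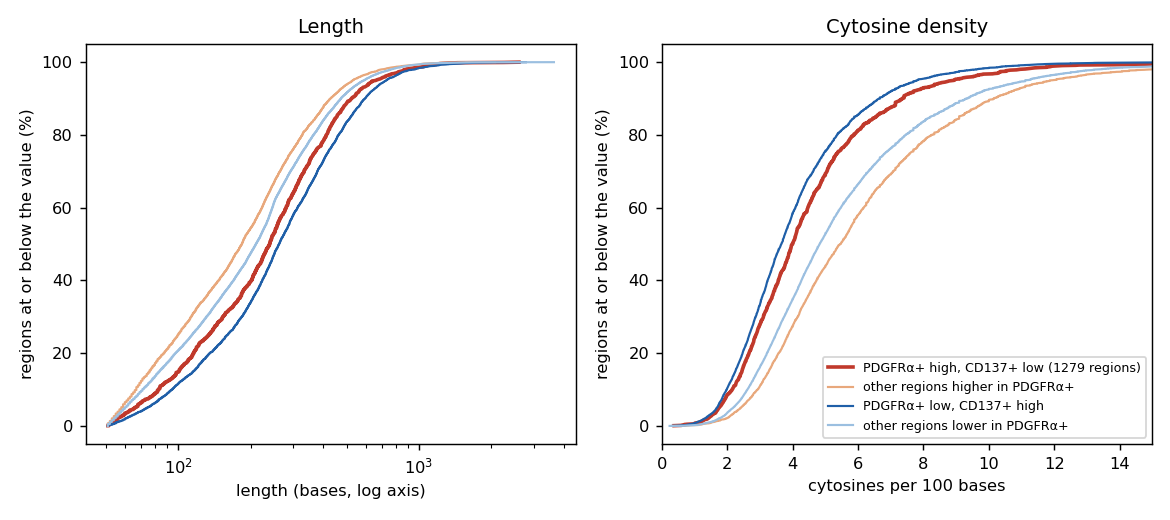
Cumulative share of regions (vertical axes, percent) by length in bases on a log axis (left) and by cytosines per 100 bases (right), in 4 sets of autosomal regions. The set with high PDGFRα+ and low CD137+ levels runs between the mirror set and the other regions, with median lengths of 240, 262.5 and 184 bases for the set, the mirror set and the other regions higher in PDGFRα+.

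The set had a larger share of its regions in genes than the list as a whole. The body of a protein-coding gene held 782 of the regions (61.1%, interval 58.4 to 63.8), against 57.9% of the other higher regions, 51.6% of the mirror regions and 52.6% of all autosomal regions. Away from every annotated gene lay 299 (23.4%, interval 21.1 to 25.8), against 25.5% of the other higher regions and 34.4% of the mirror regions. The body is the annotated span without a flank, regions away from genes lay more than 2 kb from every span, and exons and introns were not separated. By chromosome, members made up between 3.25% of the listed regions (chromosome 12, 39 of 1199) and 6.19% (chromosome 7, 82 of 1324).

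The centre of a region lay at a median of 33.0 kb from the nearest start of a coding gene in the set, against 35.5 kb in the other higher regions, 62.6 kb in the mirror regions and 69.4 kb in the other lower regions. Within 1 kb of a start lay 4.79% of the set (interval 3.66 to 6.13), against 3.22% of the other higher regions, 1.69% of the mirror regions and 2.08% of the other lower regions. Distances leave out chromosome 18, so 1233 regions of the set entered. The distribution at 100 kb or more separated the 2 directions rather than the extreme levels, with 26.5% of the set and 26.4% of the other higher regions, against 38.3% of the mirror regions.

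**Figure D3:**
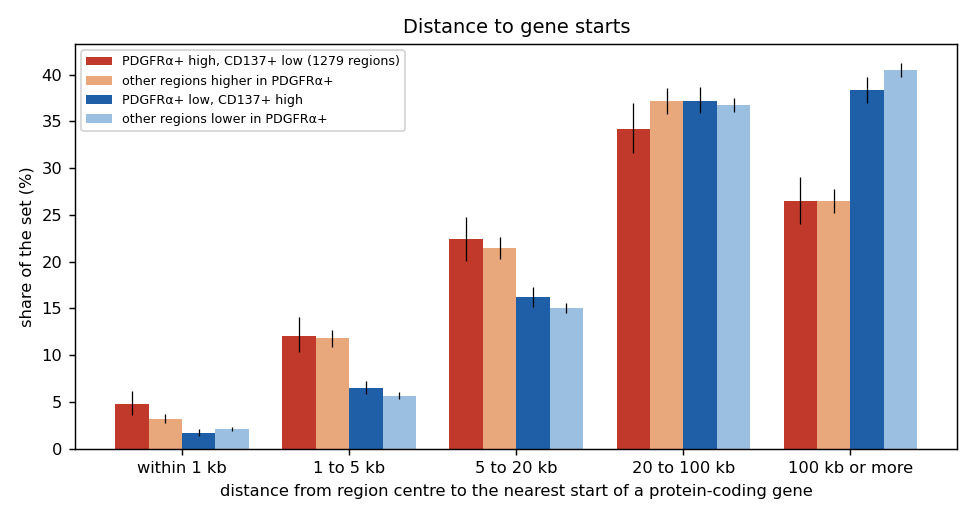
Share of each set of autosomal regions (percent, bars from 0) by distance from the region's centre to the nearest start of a protein-coding gene, with 95% exact binomial intervals as error bars. Within 1 kb stand 4.79% of the set with high PDGFRα+ and low CD137+ levels and 1.69% of the mirror set.

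A promoter window of a coding gene was reached by 30 regions of the set (2.43%, interval 1.65 to 3.46), by 1.08% of the other higher regions, by 0.590% of the mirror regions and by 0.771% of all regions on these chromosomes. They fell in 32 windows of 30 genes. Of the 206 regions that reached such a window, the set thus made up 14.6%, against 4.61% of all autosomal regions. The windows held a median of 5.5 CpG sites, against 14 in all 20085 coding windows, and 31 of the 32 held 10 or fewer, as did 44.1% of all coding windows. The windows reached by the other sets were also poor in CpG sites, with medians of 5, 6 and 7.

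Beside those already described, the 30 genes included Laptm5 (a lysosomal protein of blood cells, 0.835 in PDGFRα+ and 0.2062 in CD137+), Milr1 (an inhibitory receptor of mast cells, 0.830 in PDGFRα+ and 0.267 in CD137+) and Nlrp3 (the inflammasome sensor of macrophages, 0.914 in PDGFRα+ and 0.296 in CD137+). Pstpip1, a cytoskeletal adaptor of blood cells, had 0.805 in PDGFRα+ and 0.261 in CD137+ cells. Cbfa2t3, a corepressor of blood cell transcription, had 0.830 in PDGFRα+ and 0.197 in CD137+ cells. Arhgap30 and Arhgap45, which are GTPase-activating proteins, had 0.846 and 0.873 in PDGFRα+ and 0.283 and 0.220 in CD137+ cells. Tmc8, a transmembrane channel-like protein of lymphocytes, had 0.942 in PDGFRα+ and 0.143 in CD137+ cells, the lowest CD137+ level at any of the 30 genes. Stra6, the cell-surface receptor for retinol-binding protein, had 0.936 in PDGFRα+ and 0.231 in CD137+ cells. The others were Atxn7l1, Ccm2, Cyp2ab1, Fam124b, Gpr146, I830077J02Rik, Kcnab2, Psd4, Ripor2, Them7 and Tmem150b. By the gene lists used here, 4 of the 30 were leukocyte identity genes, 2 endothelial and none adipocyte or progenitor genes, where the leukocyte and endothelial lists hold 66 and 35 of the 20665 coding genes. Of the 51 genes with another higher region in their window, 3 were leukocyte, 1 endothelial (Tie1) and 1 a progenitor gene (Dpp4). The 27 genes with a mirror region in their window held no leukocyte gene and 1 endothelial gene, Tek, a receptor for angiopoietins.

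Letters bound by known factor families were counted in the 300-base windows on both strands, without regard to overlaps between motifs. TGTGGT, the core of RUNX sites, was present in 12 of the 32 windows of the set (37.5%, interval 21.1 to 56.3), in 40.7% of the 54 windows of the other higher regions, in 13.8% of the 29 mirror windows and in 14.8% of all coding windows. GGAAGT, an ETS core, was present in 16 of the 32 (interval 31.9 to 68.1%), in 53.7% of the windows of the other higher regions, in 24.1% of the mirror windows and in 24.99% of all. In coding windows with 10 or fewer CpG sites the shares were 21.0% for TGTGGT and 23.9% for GGAAGT. The E-box CAGCTG was present in 31.2% of the set's windows (interval 16.1 to 50.01), in 13.0% of those of the other higher regions, in 31.0% of the mirror windows, in 15.6% of all and in 17.98% of those with 10 or fewer CpG sites. GGAATG, the letters of TEAD sites, stood in 9.38% of the set's windows and in 13.4% of all windows. AGATAA of GATA factors stood in 9.38% of the set's windows and in 9.57% of all. TGANTCA of AP-1 stood in 3.12% of the set's windows and in 7.05% of all. TTGCNNAA of C/EBP factors stood in 12.5% of the set's windows and in 10.3% of all. In coding windows with 10 or fewer CpG sites the shares were 17.2% for GGAATG, 16.5% for AGATAA, 11.3% for TGANTCA and 15.1% for TTGCNNAA. In the mirror windows they were 20.7%, 20.7%, 3.45% and 20.7%, in that order. Windows of the other higher regions had 11.1%, 11.1%, 7.41% and 18.5%. A longer CTCF-like motif was in 0 of the 32 windows, which allows a share of up to 9.38%, and in 0.139% of all. A match describes letters only, and no binding was measured.

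Protein-coding genes with a region of the set in the span or within 2 kb numbered 777, which is 3.76% of 20665 such genes and 12.3% of the 6333 with any listed region. They drew 831 of the regions (65.0%), of which 33 lay at 2 or more genes. Most of the genes, 701, held 1 region of the set, 67 held 2 and 9 held 3 or more. The genes were long, with a median of 82.8 kb, against 52.2 kb for genes with any listed region and 17.5 kb for all coding genes. Long non-coding RNA genes with a region of the set numbered 243, which is 1.96% of 12408 such genes and 7.82% of those with any listed region.

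Gse1, a coiled-coil protein of corepressor complexes, held the most, 5 of its 11 listed regions. Their levels ranged from 0.804 to 0.972 in PDGFRα+ and from 0.143 to 0.293 in CD137+ cells, and 5 of the other 6 regions were also higher in PDGFRα+. Arhgap24, a GTPase-activating protein for Rac, held 4 of 17 regions, but 12 of its other 13 were lower in PDGFRα+ cells. Vav3, a guanine nucleotide exchange factor related to Vav1, held 3 regions within 21.3 kb of a start, with mean levels of 0.884 in PDGFRα+ and 0.213 in CD137+ cells. Elf1, an ETS-family factor of lymphocytes, held 3 within 14.3 kb, with means of 0.836 in PDGFRα+ and 0.273 in CD137+ cells. Mbnl1, Akap13, Tmem108, Dlg2 (a synaptic scaffold) and Syn3 (a synaptic vesicle protein) held 3 each. At Dlg2 the other 7 regions were all lower in PDGFRα+, with means of 0.235 in PDGFRα+ and 0.752 in CD137+ cells.

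A gene could carry both patterns. Among the 777 genes, 238 also held a region of the mirror set (30.6%), close to the 31.99% of all genes with a listed region. Runx1 is a plain case: the region at its start was high in PDGFRα+ cells, and its other 7 regions were all lower in PDGFRα+, with mean levels of 0.284 in PDGFRα+ and 0.814 in CD137+ cells. Prdm16, a regulator of brown and beige fat, held 1 region of the set (0.814 in PDGFRα+, 0.216 in CD137+) among 15 that were lower in PDGFRα+. At Ptprc and Ikzf1 every listed region was higher in PDGFRα+ cells, 8 and 5 in number. Of the 777 genes, 549 had 2 or more listed regions, and 76 of these had only higher ones. Each of the 549 held a higher region by the rule, and no share over all coding genes was computed. The count is therefore a description only.

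The other regions of the same genes give a measure that the rule did not use. Of 2498 regions at the 777 genes outside the set, 637 were higher in PDGFRα+ (25.5%, interval 23.8 to 27.3), against a background of 21.1% over all coding genes and 20.1% at genes without a region of the set. At genes with 2 or more regions of the set the share was 31.5% (166 of 527). For regions at least 10 kb from every region of the set it was 20.5%, against 20.2% for such regions at all coding genes. With levels of 0.75 and 0.35 it was 20.6%, against a background of 16.6% at those levels. At genes with a mirror region, 24.7% of the regions outside the mirror set were higher, against 30.6% of such regions over all coding genes.

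Counts were then made for gene lists of cell types, pathways and transcription factor families. They were written with earlier results of these data known, so the counts describe the lists. Leukocyte identity genes had the largest share, 16 of 66 (24.2%), against 3.76% of all coding genes, with 20 of their 105 listed regions in the set (19.05%, against 4.61% of all autosomal regions). The median length of these genes was 20.8 kb, shorter than the 52.2 kb of genes with any region. Of their 85 other regions 47.1% were higher in PDGFRα+, against 21.1% over all coding genes. Over all 105 regions of these markers the median difference was 0.38, against -0.48 over regions at all coding genes, and 25 of the 66 genes held no listed region. The order of the lists depended on the thresholds. With levels of 0.85 and 0.25, 3 of the 66 leukocyte genes held a region (4.55%), against 1.31% of all coding genes, below the 3 of 35 endothelial genes (8.57%) and the 3 of 44 progenitor and fibroblast genes (6.82%). The part of leukocyte DNA in the CD137+ library was not tested.

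Among leukocyte genes, Ikzf1, the lymphoid transcription factor Ikaros, had 2 regions around its start with 0.8999 and 0.931 in PDGFRα+ and 0.276 and 0.283 in CD137+ cells. Vav1, an exchange factor of blood cells, had 2 with 0.902 and 0.905 in PDGFRα+ and 0.241 and 0.2802 in CD137+ cells. At Vav1 the other 3 regions were lower in PDGFRα+, 2 of them mirror regions. Fyb, an adaptor of T cell receptor signalling, had 2 with 0.882 and 0.851 in PDGFRα+ and 0.164 and 0.275 in CD137+ cells. Gata3, a factor of T helper cells, had 1 with 0.822 in PDGFRα+ and 0.284 in CD137+ cells. Lower regions outnumbered higher ones at 4 of the 16 genes, Vav1, Dock2 (9 of 11 lower), Runx1 and Cd37 (3 of 4 lower). The whole leukocyte list held 13 mirror regions. Among its genes without a region of the set, Cd3e, Itgal, Mrc1, Runx3, Gfi1, Hcls1, Ncf1, Ncf4 and Lck held only lower regions. Ikzf3, Cd48, Cd83, Cd4, Cd79b, Tyrobp, Fcer1g, Itgb2, Itgb7, Itga4, Csf1r, Arhgdib, Rhoh, Nckap1l and Ctss held only higher ones, and Spi1 held both. The other leukocyte genes, beside those already described, were Cd37, Cd74, Cebpe, Coro1a, Inpp5d and Lcp2. The 20 regions ran from 0.801 to 0.970 in PDGFRα+ and from 0.164 to 0.294 in CD137+ cells.

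Endothelial identity genes came next by share of regions among the lists with more than 1 listed region: 6 of 35 genes (17.1%) held 8 of the list's 60 regions (13.3%), and 46.2% of the other 52 were higher in PDGFRα+. Eng held 2 and both were in the set, the second with 0.942 in PDGFRα+ and 0.207 in CD137+ cells. Vwf, the von Willebrand clotting factor, had 0.929 in PDGFRα+ and 0.235 in CD137+ cells. Cdh5, the cadherin of endothelial junctions, had 0.882 in PDGFRα+ and 0.254 in CD137+ cells, as its single listed region. Fli1 and Ets1, ETS-family factors of endothelium and blood, had 0.861 and 0.805 in PDGFRα+ and 0.294 and 0.225 in CD137+ cells. Fli1 and Ets1 each had 4 other regions higher and 1 lower in PDGFRα+. At Erg 3 of 8 regions were lower, and at Vwf 2 of 4. Outside the set, Pecam1, Kdr, Tie1 and Dll4 held only higher regions. Flt4, Tek, Emcn, Tal1, Rasip1 and Prox1 held only lower ones, and at Flt1 6 of 7 were lower. The endothelial list held 5 mirror regions, and 16 of its 35 genes held no listed region. The part of endothelial cells in either library was not tested. The list of RUNX and ETS factors shares Runx1, Runx3 and Spi1 with the leukocyte list, and Erg, Fli1, Ets1 and Elk3 with the endothelial list. Runx3, Spi1 and Elk3 held no region of the set, and all 5 regions at Runx3 were lower in PDGFRα+, 4 of them mirror regions. The list of RUNX and ETS factors held 9 of 79 regions (11.4%), at 6 of its 28 genes (21.4%), with Elf1 and Spib in addition.

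**Figure D4:**
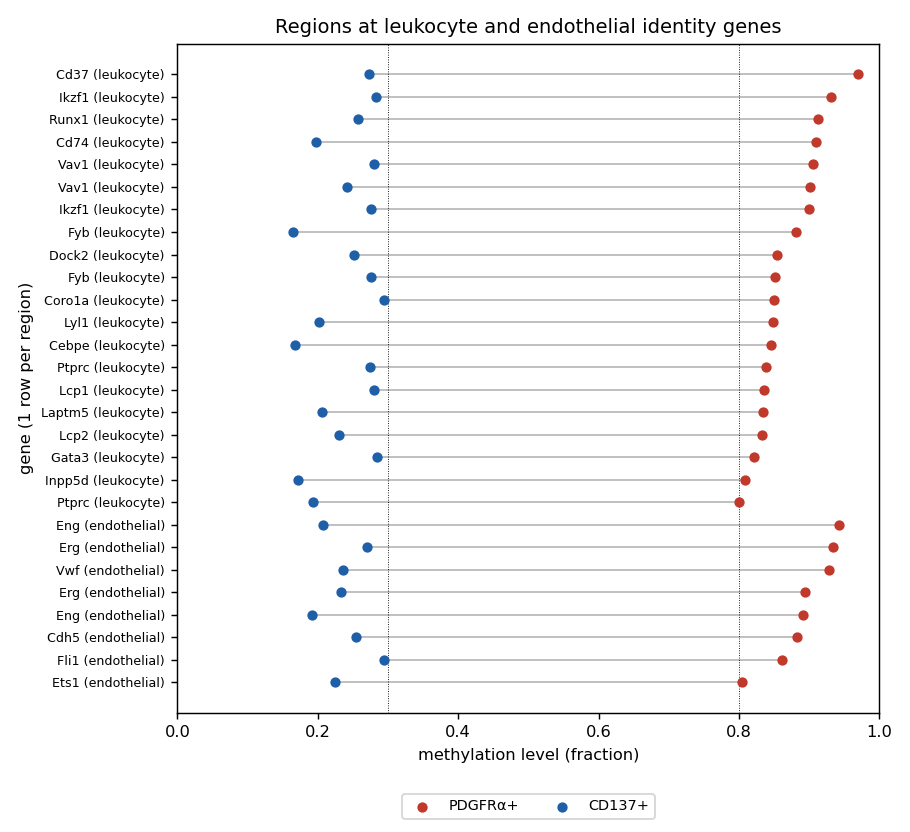
Methylation level (horizontal axis, fraction) of each region of the set at genes of the leukocyte (20 regions) and endothelial (8 regions) lists in PDGFRα+ and CD137+ cells, 1 row per region, with the thresholds of 0.80 and 0.30 as dotted lines. PDGFRα+ levels spread from 0.801 to 0.970 and CD137+ levels from 0.164 to 0.294, both bounded by the thresholds.

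Genes of the labelled tissue were counted in the same way. The adipocyte list held 7 of 87 regions (8.05%), with 16.2% of its other 80 regions higher in PDGFRα+. The 7 regions lay at 7 of its 40 genes (17.5%), against 3.76% of all coding genes and 17.1% of endothelial identity genes. They were at Elovl6, a fatty acid elongase (0.812 in PDGFRα+, 0.274 in CD137+), Acsl1, a fatty acyl-CoA synthetase (0.884 in PDGFRα+, 0.298 in CD137+), Gpd1 (0.865 in PDGFRα+, 0.220 in CD137+), Ppargc1a, a coactivator of mitochondrial biogenesis (0.817 in PDGFRα+, 0.289 in CD137+), Ebf2 (0.874 in PDGFRα+, 0.273 in CD137+), Zfp423 (0.825 in PDGFRα+, 0.276 in CD137+) and Prdm16. Ebf2 promotes and Zfp423 restrains the thermogenic programme of fat cells. Around the regions at Ppargc1a, Zfp423 and Ebf2, 11, 7 and 8 other regions of the gene were lower in PDGFRα+ cells. Ppargc1a and Ebf2 each had 2 other regions higher.

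The progenitor and fibroblast list held 7 of 93 regions (7.53%), at 7 of its 44 genes (15.9%). Of its other 86 regions 20.9% were higher in PDGFRα+, against 21.1% over all coding genes, and the list held 10 mirror regions. Without a region of the set, Pdgfra, Dcn, Col1a1, Col1a2, Col3a1, Col5a1, Mmp14, Twist2, Prrx2, Gli3, Snai1, Zeb1, Fap, Bmper and F3 held only lower regions. Osr2, Foxc2, Foxf1 and Meox2 held only higher ones, and Dpp4, Gli2 and Tnxb held both. Mmp2, a secreted metalloproteinase, had a region of 1053 bases and 31 cytosines with 0.902 in PDGFRα+ and 0.2103 in CD137+ cells. Fbn1, which encodes fibrillin, had 0.831 in PDGFRα+ and 0.175 in CD137+ cells, while its other 10 regions were lower in PDGFRα+. Prrx1 (a homeobox factor of limb mesenchyme), Meox1, Foxc1 and Zeb2 held 1 each, as did Osr1. Patterning transcription factors held 7 of 110 regions (6.36%), at 8 of 81 genes (9.88%), and 39.8% of their other regions were higher in PDGFRα+. They lay at Hoxb6, Hoxc9, Hoxd3 with Hoxd4 (1 shared region), Alx1, Emx2, Tbx4 and Tbx5. Of the T-box genes, factors of limb and heart patterning, 3 of 12 held a region of the set, including Tbx2 with 0.863 in PDGFRα+ and 0.289 in CD137+ cells.

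The remaining lists held few regions of the set, and their counts are read against the 4.61% of all autosomal regions and the 3.76% of all coding genes. The smooth-muscle and pericyte list held 2 of 53 regions (3.77%, 7.14% of its genes), at Tbx2 and Kcnj8, which is near both shares. The mesothelial and epithelial list held 0 of 27, which allows a share of up to 11.1% and so includes the share of all regions. Collagen genes, the main matrix genes of fibroblasts, were counted by symbol after their values were seen. They held 0 of 100 listed regions, which allows a share of up to 3.0%. Hippo and TEAD genes held 1 of 82 (1.22%), which was at Tead1, and glucocorticoid response genes 1 of 55 (1.82%), at the kinase gene Sgk1 with 0.811 in PDGFRα+ and 0.201 in CD137+ cells. The ribosomal protein list had a single listed region, at Rpl18, and it was in the set (0.848 in PDGFRα+, 0.203 in CD137+).

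Tead1, the transcription factor at the end of the Hippo pathway that the study's title names, held 1 region of the set among 8. It spans chr7:112825279-112825540 with 17 cytosines, and its levels of 0.812 in PDGFRα+ and 0.291 in CD137+ cells placed it just inside both thresholds. Of the other 7 regions, 4 were higher in PDGFRα+ and missed a threshold, and 3 were lower in PDGFRα+.

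MicroRNA genes were reached within 2 kb by 6 regions of the set, at 8 genes, which is 0.704% of 1136 microRNA genes and 10.3% of the 78 with any listed region, against 3.76% and 12.3% for coding genes. Their mature sequences from RefSeq are shown with the seed, bases 2 to 8 that pair with targets, in capitals, for those whose roles are known best.
miR-142a-5p: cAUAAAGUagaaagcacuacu
miR-142a-3p: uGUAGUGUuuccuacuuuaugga
miR-142b: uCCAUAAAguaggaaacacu
miR-33-5p: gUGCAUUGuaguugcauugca
miR-183-5p: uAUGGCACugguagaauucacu
miR-96-5p: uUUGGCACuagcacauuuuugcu
No seed was shared between these 6. The region near miR-142, a microRNA abundant in blood cells, spans chr11:87755884-87756496, 367 bases from the hairpin of miR-142a and 344 bases from miR-142b on the other strand. It had 28 cytosines, with 0.939 in PDGFRα+ and 0.274 in CD137+ cells. The region 197 bases from miR-33, which lies within the gene of a regulator of sterol synthesis and targets cholesterol exporters, measured 0.916 in PDGFRα+ and 0.287 in CD137+ cells over 8 cytosines. One region near miR-183 and miR-96, a cluster known from sensory cells, had 0.836 in PDGFRα+ and 0.217 in CD137+ cells. It lay 1638 and 1824 bases from the 2 hairpins. The others, Mir1954 in the Eng locus, Mir7687 in Gse1 and Mir7681, lay 758 to 1669 bases from a region.

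Listed regions nearest to the set were more often higher in PDGFRα+ than regions outside the set as a whole. Higher ones were the majority only at gaps under 1 kb. The listed region nearest to a region of the set was higher in PDGFRα+ for 37.5% of the set (480 of 1279, interval 34.9 to 40.2). When the neighbour itself belonged to the set, as in 92 cases, its direction was fixed by the rule, so such neighbours were left out of all shares that follow, in every set. Neighbours from the comparison sets stayed in, so those sets kept neighbours of their own kind and direction. Their shares are therefore not on equal terms with that of the set. Of the 1187 neighbours left, 32.7% were higher, against 37.3% for the other higher regions, 15.7% for the mirror regions, 14.3% for the other lower regions and a background of 18.5% of regions outside the set. The share fell with distance: it was 83.7% for the 86 gaps under 1 kb, 42.9% from 1 to 5 kb, 31.2% from 5 to 20 kb, 22.4% from 20 to 100 kb and 13.7% for the 73 gaps of 100 kb or more. At that last distance the interval, 6.77 to 23.8, held the background of 18.5%. The other higher regions also fell with distance, with 88.3% under 1 kb, 26.8% from 5 to 20 kb and 17.1% at 100 kb or more.

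**Figure D5:**
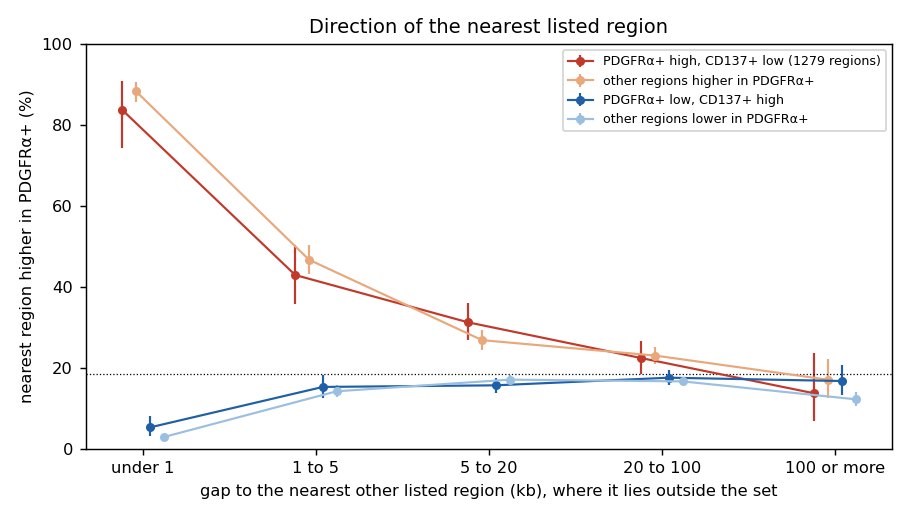
Share of regions whose nearest other listed region was higher in PDGFRα+ (vertical axis, percent) by the gap between them in kb, in 4 sets of autosomal regions, for neighbours outside the set, with 95% exact binomial intervals and the 18.5% of all regions outside the set as a dotted line. The set with high PDGFRα+ and low CD137+ levels falls with distance, with 83.7% under 1 kb and 13.7% at 100 kb or more.

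Few regions of the set stood together. Grouping those within 10 kb of each other gave 34 clusters with 73 regions (5.71%), 4 of them with 3 or more regions. The fullest lay outside any protein-coding gene at chr7:70324231-70333110. It was 18.8 kb from Nr2f2, which encodes a nuclear receptor of venous and mesenchymal cells. Its 4 regions had 0.894, 0.917, 0.872 and 0.908 in PDGFRα+ and 0.273, 0.289, 0.285 and 0.257 in CD137+ cells. One of the other 3 was in Mbnl1 and another in Elf1.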

How the data were processed

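Bisulfite libraries were made per the labels' protocols from DNA sheared to about 350 bases. The data are 1 table of differentially methylated regions made by the authors, with 10 columns. Per the file headers it gives, per region and library, a methylation level deposited as a fraction from 0 to 1, a length and a number of cytosines deposited as whole-number counts, and the authors' area statistic, a score with no fixed range that was used here for ranking only. The submitters' processing notes name mm10 as the build. The aligner, region caller, thresholds, coverage and any smoothing are not given in the labels or headers, so depth is unknown.

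Starts were taken as counted from 0 and are printed from 1. In 84 regions inside promoter windows, the base after the deposited start and the last base were CpG cytosines in all 84. Regions were assigned to RefSeq gene spans of GRCm38.p6 with 2 kb on each side. Strand and starts came from the RefSeq promoter windows, which leave out chromosome 18. With 1 library per group no test was made, and shares carry exact (Clopper-Pearson) 95% intervals. For a count of 0 the limit is 3 counts of the total.

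The thresholds, the gene lists and the comparison sets were chosen with earlier results of these data known. Of the listed symbols, 1 to 2 in each of 3 lists matched no autosomal gene. Named genes were the 10 widest differences and the 10 largest statistics at coding genes, genes with 3 or more regions, the 5 longest and 5 densest regions, up to 8 genes per list by the statistic, and Tead1, Pdgfra and Tnfrsf9. Other genes, including those with a region in a promoter window, were chosen after their values were seen. A gene list and a cluster of regions are not reported here. The overlap and neighbour searches were tested on simulated data. Alternatives were stricter and looser levels, minimums of 5 and 10 cytosines, other flanks, and other regions at a distance. The work used scipy 1.17.1, pandas 2.3.3, numpy 2.4.6 and matplotlib 3.10.9 under Python 3.11.15.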

Additional observations from a re-analysis of the deposited data

Results flagged for a closer look

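The X chromosome, outside the set, carried regions at the same levels: 29 of its 365 listed regions (7.95%, exact 95% interval 5.38 to 11.2) had at least 0.80 in PDGFRα+ and at most 0.30 in CD137+ cells, against 4.61% of autosomal regions. It was picked out because these regions enter no comparison above. Of the 365, 21.1% were higher in PDGFRα+ cells.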

How the results depend on the processing

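No paired analysis was possible because each group had 1 library, and no library could be left out. Of 133 alternative values, only the length and density ratios could reverse by the measure used, and none of these did. Counts and other shares could only stay or move. The order of the gene lists changed with the levels, as given above. Of the values that answer a comparison, 42 stayed within their interval or within 1.5 times the count and 31 moved. With levels of 0.85 and 0.25 the set fell to 414 regions (1.49% of autosomal regions), the listed genes with a region fell to 19 of the 64, leukocyte genes to 3 of the 16 and endothelial genes to 3 of the 6. The median length was then 208.5 bases, the length and density ratios to the other higher regions 1.09 and 0.760, and 20.5% lay away from genes. Of the other regions of the genes 29.3% were higher, against a background of 23.99% over all coding genes at those levels. With 0.75 and 0.35 there were 2546 regions (9.17%), the length ratio was 1.37 and the median density 4.26. The share of other regions higher was 20.6%, against a background of 16.6% at those levels. With at least 10 cytosines there were 552 regions (4.20%), of median length 368 bases, density 4.17 and density ratio 0.762. Of these 69.6% lay at a coding gene, 19.8% away from genes and 3.72% in a promoter window (an alternative chosen after seeing the data). Of the other regions 27.7% were higher, and no background was computed at that minimum. With at least 5 cytosines the median length was 260 bases. Within classes of cytosine number the length ratio was 1.37. Gene spans alone gave 61.1% at coding genes and 28.5% away from genes, and spans with 10 kb gave 72.8% and 13.1%. Other regions at least 10 kb from the set were higher in 20.5%, against 20.2% for such regions at all coding genes. The cause of these shifts was not tested. Depth is unknown, so how far sampling of reads sets single levels, above all in regions of 4 cytosines, cannot be given.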

Other observations

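Among gene families counted by symbol after their values were seen, phosphodiesterases of cyclic nucleotides held 7 of 107 listed regions in the set (6.54%). These lay at Pde2a, Pde4b, Pde4d and Pde7b. Forkhead factors held 6 of 72 (8.33%), at Foxc1, Foxn3, Foxo6 and Foxp1. Both shares are read against the 4.61% of all autosomal regions. Solute carriers held 11 of 343 (3.21%, against 4.61% of all autosomal regions). Olfactory receptor genes, 1104 in number, had 14 listed regions and none in the set, which allows a share of up to 21.4%. That limit includes the share of all regions.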
